A study of Mus musculus with 22 samples.

Results

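The vascular endothelial growth factor (VEGF) and angiopoietin ligands were examined in fibroblasts sorted from mouse back skin after surgery with or without a tissue expander. The members were the 9 rows of the raw count table whose Ensembl identifier mapped to Vegfa, Vegfb, Vegfc, Vegfd, Pgf, Angpt1, Angpt2, Angptl2 or Angptl4, out of 55414 genes. All 9 were found, and all 9 passed the filter on low counts that left 17554 genes for testing. Every mouse was operated on. An incision was made near the tail, a path under the skin was opened towards the neck, and the wound was stitched. EXP mice received an expander hydrogel under the skin of the neck region, and CTRL mice did not. Skin was taken on day 1 (4 CTRL and 5 EXP libraries), day 2 (3 and 3) or day 4 (4 and 3), giving 22 libraries in 6 groups. Sorting removed vessel (CD31), blood (CD45), melanocyte (CD117) and epithelial (EpCAM) cells and then took live CD34+ PDGFRα+ cells. Strain, sex and age are not given in the sources used here, nor is it stated whether a library came from a single mouse, so the p-values measure the spread between these libraries.

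VEGF family ligands are secreted dimers that act on receptor tyrosine kinases of endothelial cells. VEGF-A and placental growth factor (Pgf) act mainly on blood vessels, and VEGF-C and VEGF-D, which share the receptor VEGFR-3, are best known for the growth of lymphatic vessels. Angiopoietin-1 activates the endothelial receptor Tie2 (gene Tek) and stabilises vessels, and angiopoietin-2 is a ligand of the same receptor that often opposes it. The angiopoietin-like proteins resemble angiopoietins in sequence but do not act through Tie2. Angptl4 inhibits lipoprotein lipase, and Angptl2 is a secreted glycoprotein linked to inflammation and matrix remodelling. Dermal fibroblasts are a source of several of these ligands for neighbouring vessels.

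Between the expander arm and the surgery arm, 6 of the 9 ligands differed on at least 1 day. The share of all tested genes called on at least 1 day was not computed, so this count has no background beside it. On day 1 Angpt2 alone passed the test, and it fell. On day 2 Vegfd and Angpt1 rose and Pgf fell. On day 4 Vegfd, Angpt1 and Vegfb rose and Vegfc fell. Calls are from edgeR's quasi-likelihood test at a Benjamini-Hochberg adjusted p under 0.05 over all tested genes, so 1 of 9 members was called on day 1, where 28.6% of all tested genes were (13.9% higher and 14.7% lower in EXP). Day 2 had 3 of 9 members called against 13.4% of all genes (7.72% higher and 5.71% lower). Day 4 had 4 of 9 called against 22.5% (12.8% higher and 9.66% lower). The members' median log2 fold change was -0.33, 0.47 and 0.62 on days 1, 2 and 4, beside 0.02, 0.02 and 0.03 over all tested genes. These counts are small and describe the 9 genes only.

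The libraries held 21461294 to 30210204 counts, and 3 counts, taken as the lowest detectable level, were 0.0993 to 0.140 CPM (counts relative to library size), a floor that covers counting error only. The markers that defined the sort were as labelled: Pdgfra and Cd34 were between 185 and 2144 CPM in every library, and Ptprc, Kit, Epcam and Pecam1 did not exceed 0.248, 0.752, 1.89 and 3.76 CPM. The summed level of 8 fibroblast markers, most of it from the collagen genes Col1a1 and Col1a2, was lower in every EXP library than in every CTRL library of the same day. Of the sort genes themselves, Pdgfra rose in EXP on all 3 days (log2 fold changes 0.84, 1.71 and 0.79, edgeR adjusted p = 0.0154, 0.00134 and 0.0456), and Cd34 fell on days 1 and 2 (-1.74 and -2.07, edgeR adjusted p = 8.10e-04 and 0.00379). Of the calls over all genes, 48.7%, 57.5% and 57.0% were higher in EXP on days 1, 2 and 4. On library totals in place of TMM scaling these shares were 66.2%, 90.5% and 80.7%, and the median log2 fold change of all tested genes moved to 0.21, 0.49 and 0.36. The labels give no dates, so a batch that follows the day cannot be told apart from it. In bulk RNA a smaller share of ligand-producing cells and less ligand RNA per cell cannot be told apart.

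**Figure D1:**
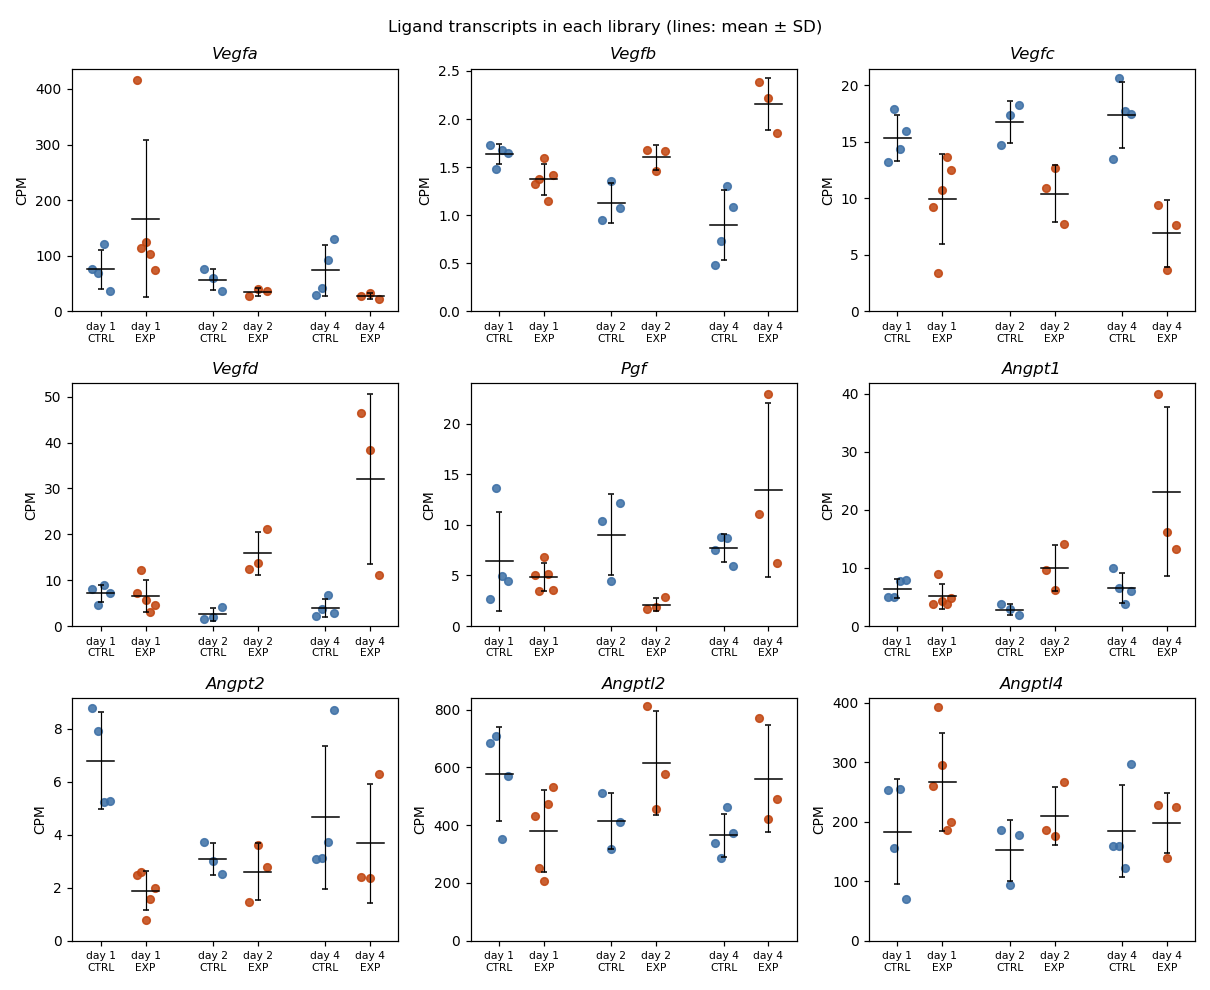
Level of each ligand in CPM on TMM-scaled totals (vertical axes, linear from 0, one scale per gene) in the 22 libraries, by day and arm, with blue points for CTRL, orange points for EXP and lines for the group mean ± SD. On days 2 and 4 all EXP libraries lie above all CTRL libraries of the same day for Vegfd and Angpt1 and below them for Vegfc, and Angpt2 is low in all 5 EXP libraries of day 1.

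Vegfd, a ligand of VEGFR-3, showed the largest change of the 9 ligands. On day 1 it was 8.04, 4.62, 8.91 and 7.24 CPM in the CTRL libraries and 7.20, 12.1, 5.67, 3.15 and 4.63 CPM in the EXP libraries. The groups overlapped, and the log2 fold change was -0.14 ± 0.42 (SE), with an edgeR quasi-likelihood adjusted p of 0.836. On day 2 the CTRL libraries held 1.54, 1.93 and 4.18 CPM and the EXP libraries 12.5, 13.8 and 21.2 CPM. Every EXP library was above every CTRL library, a 6.17-fold rise (log2 fold change 2.62 ± 0.55 SE, edgeR adjusted p = 0.00431). On day 4 the CTRL libraries held 2.27, 3.73, 6.79 and 2.81 CPM and the EXP libraries 46.4, 38.4 and 11.1 CPM. Again the arms did not overlap, and Vegfd was 8.18-fold higher in EXP (log2 fold change 3.03 ± 0.50 SE, edgeR adjusted p = 6.04e-04). The EXP effect on Vegfd differed between days (edgeR joint test, adjusted p = 0.00674), a call made for 8.82% of all genes and for 3 of the 9 ligands.

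Vegfc, the nearest relative of Vegfd, went the other way. It was 13.5, 20.6, 17.7 and 17.4 CPM in the day 4 CTRL libraries and 9.39, 3.68 and 7.61 CPM in the EXP libraries. All 3 EXP libraries were below all 4 CTRL libraries, and Vegfc fell 2.51-fold (log2 fold change -1.33 ± 0.35 SE, edgeR adjusted p = 0.0111). The day 2 libraries did not overlap either, at 14.7 to 18.2 CPM in CTRL and 7.70 to 12.6 CPM in EXP, but the difference was not called (log2 fold change -0.69 ± 0.36 SE, edgeR adjusted p = 0.219). On day 1 the CTRL libraries ranged from 13.2 to 17.8 CPM and the EXP libraries from 3.43 to 13.6 CPM, with a log2 fold change of -0.63 (edgeR adjusted p = 0.114). A difference between days in the EXP effect on Vegfc was not detected (edgeR adjusted p = 0.501). The day 4 call rested in part on EXP library 2, without which the log2 fold change was -1.05 (edgeR adjusted p = 0.0661), and it was lost on library totals without TMM (-0.96, adjusted p = 0.0620). Vegfd stayed called on days 2 and 4 in all 13 fits that left out a library of the compared groups.

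Read per kilobase of exon, which allows levels of different genes to be compared, the pair changed places. In all 11 CTRL libraries Vegfd was below Vegfc. The ratio of Vegfd to Vegfc (CPM per kb) had CTRL medians of 0.540, 0.113 and 0.178 for days 1, 2 and 4. In EXP the median was 0.536, 1.16 and 5.02. Of the EXP libraries, 1 of 5 on day 1 had more Vegfd than Vegfc, and all 3 did so on day 2 and all 3 on day 4. Both genes move in this ratio: the Vegfd group mean in CTRL was 7.20 CPM on day 1 against 2.55 and 3.90 CPM on days 2 and 4, a change over days that was not called (edgeR adjusted p = 0.272).

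**Figure D2:**
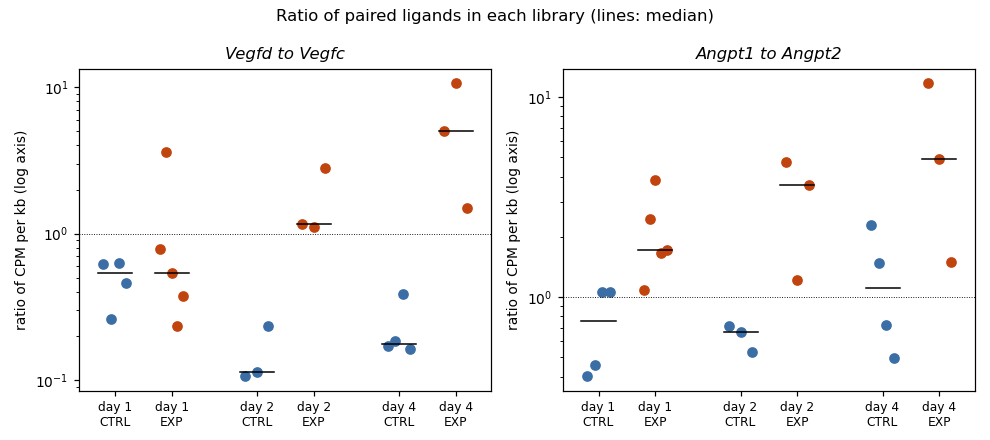
Ratio of Vegfd to Vegfc and of Angpt1 to Angpt2 in each library, both in CPM per kb (vertical axes on a log scale, dotted line at 1), with blue points for CTRL, orange points for EXP and a line at the group median. No CTRL library has more Vegfd than Vegfc per kb, while all 6 EXP libraries of days 2 and 4 do, and the Angpt1 to Angpt2 ratio is above 1 in all 11 EXP libraries.

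Sequences upstream of this pair are shown because they are the 2 related ligands that moved in opposite directions. They are the bases before the annotated start, without any annotated exon, from the RefSeq promoter windows (GRCm38.p6, a build other than that of the count table). For Vegfd 144 of the bases before the RefSeq start lie in GENCODE M21 exons. Its stretch therefore has 106 bases and ends short of that start, and the Vegfc stretch has 250. Vegfd met the rule for showing a promoter, and Vegfc was added for contrast after its values were seen. Both are written 5′ to 3′ on the plus strand, and capitals mark GGGCGG, the core of the Sp1 motif, on either strand.
Vegfd, chrX:164373272-164373377: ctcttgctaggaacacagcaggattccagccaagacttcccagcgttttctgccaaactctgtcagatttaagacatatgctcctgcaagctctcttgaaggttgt
Vegfc, chr8:54077282-54077531: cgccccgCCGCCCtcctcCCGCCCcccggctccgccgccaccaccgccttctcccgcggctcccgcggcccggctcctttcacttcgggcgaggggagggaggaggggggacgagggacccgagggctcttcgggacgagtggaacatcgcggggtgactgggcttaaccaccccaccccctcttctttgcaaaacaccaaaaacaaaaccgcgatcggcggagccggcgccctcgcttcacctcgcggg
The Vegfc stretch holds 2 GGGCGG matches, which do not overlap each other, and the shorter Vegfd stretch none. In the windows of 300 bases the matches are also 2 for Vegfc and 0 for Vegfd. A match to GGGCGG was found in 35.7% of all 32851 RefSeq windows of 300 bases. The 300-base window of Vegfc was 70.3% G or C, more than 90.9% of all windows, and that of Vegfd 42.0%, more than 14.1% of them, beside a median of 52.7%. Neither 300-base window holds ACGTG (the core of the hypoxia response element), TGANTCA (an AP-1 motif) or GGAATG (a TEAD motif) on either strand, which 19.6%, 7.81% and 14.7% of all windows do. These matches are descriptions of the letters in the windows only.

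VEGF-C and VEGF-D are made as precursors, and the enzymes that cut them are part of how much active ligand results. Of 7 genes for this processing, 2 rose and 1 fell on day 1, 2 rose on day 2 and 1 rose on day 4. Their median log2 fold changes were -0.15, -0.04 and 0.26, beside 0.02, 0.02 and 0.03 for all genes, of which 28.6%, 13.4% and 22.5% were called. Pcsk5, a proprotein convertase, rose by 1.16, 3.12 and 2.85 on the log2 scale on days 1, 2 and 4 (edgeR adjusted p = 0.0377, 8.81e-04 and 6.04e-04). On day 2 it was 386, 224 and 311 CPM in EXP and 24.6 to 55.4 CPM in CTRL. On day 4 it was 714, 263 and 109 CPM in EXP and 45.5 to 61.2 CPM in CTRL, without overlap on either day. Without EXP library 1 the day 4 log2 fold change of Pcsk5 was 1.89 (edgeR adjusted p = 0.00586), and its day 1 call was lost in 4 of 9 fits that left out a library. Furin, another convertase, rose on day 1 (1.19) and day 2 (1.27), with edgeR adjusted p of 4.68e-04 and 0.00373. Adamts14, a procollagen peptidase of the ADAMTS2 group that can also cut VEGF-C, fell on day 1, from 29.4 to 4.13 CPM (log2 fold change -2.83, edgeR adjusted p = 2.01e-05). Ccbe1, the cofactor of VEGF-C cleavage, was between 31.1 and 61.3 CPM in the 6 group means and was called on no day. Its partner protease Adamts3 was at 0.480 to 1.26 CPM and was not called either.

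Angpt1 rose with Vegfd on days 2 and 4. On day 2 the CTRL libraries held 3.78, 2.87 and 1.89 CPM and the EXP libraries 9.67, 6.18 and 14.2 CPM. On day 4 the CTRL libraries held 10.01, 6.56, 3.81 and 6.06 CPM and the EXP libraries 39.9, 16.2 and 13.3 CPM. The arms did not overlap on either day. The rise was 3.51-fold on day 2 (log2 fold change 1.81 ± 0.45 SE, edgeR adjusted p = 0.0115) and 3.50-fold on day 4 (1.81 ± 0.40 SE, edgeR adjusted p = 0.00428). On day 1 the groups overlapped, at 4.99 to 7.89 CPM in CTRL and 3.73 to 8.93 CPM in EXP (log2 fold change -0.33 ± 0.36 SE, edgeR adjusted p = 0.524). The difference between days was called (edgeR joint test, adjusted p = 0.0179). The day 4 value leaned on EXP library 1: without it the log2 fold change was 1.16 (edgeR adjusted p = 0.0653). The day 2 call was lost without CTRL library 3 (1.57, adjusted p = 0.0593) or EXP library 3 (1.46, adjusted p = 0.0614). A stretch of 737 bp, 14.2% of the Angpt1 exons, overlaps the opposite-strand gene Gm17473, which held 42 counts over all libraries.

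Angpt2 was the single ligand called on day 1. The CTRL libraries held 8.78, 7.92, 5.23 and 5.29 CPM and the EXP libraries 2.48, 2.59, 0.799, 1.59 and 2.01 CPM. All 5 EXP libraries lay below all 4 CTRL libraries. Angpt2, which pericytes and endothelial cells also express, fell 3.59-fold (log2 fold change -1.84 ± 0.40 SE, edgeR adjusted p = 0.00164), and the call held in all 9 fits that left out a library of day 1. In the day 1 libraries with the higher level of the 192 co-varying genes described with Vegfa, it was not called (-1.53, edgeR adjusted p = 0.0700). Over all tested genes 14.7% fell and 13.9% rose on day 1. Of 8 tested markers of pericytes and smooth muscle, 2 fell on day 1 and none rose. These were Abcc9 (-1.71, edgeR adjusted p = 0.0132) and Cspg4 (-1.20, adjusted p = 0.00713), and the summed level of all 9 markers was 49.97 to 85.01 CPM in CTRL and 23.6 to 46.5 CPM in EXP, without overlap. Most of this sum came from Kcnj8, Abcc9 and Cspg4. The pericyte marker Rgs5 was at most 2.09 CPM on day 1 and was not called (-0.98, edgeR adjusted p = 0.476), nor were Notch3, Myh11 and Mcam. Of 8 tested blood endothelial markers 1 rose on day 1, Plvap (1.35, edgeR adjusted p = 0.0432). Their part in the result was not tested. On day 2 Angpt2 overlapped between the groups at 2.52 to 3.73 CPM in CTRL and 1.45 to 3.62 CPM in EXP. On day 4 they overlapped at 3.10 to 8.70 CPM and 2.36 to 6.29 CPM. The log2 fold changes of these days were -0.24 (95% interval -1.27 to 0.78) and -0.34 (-1.29 to 0.60), and the former was 0.20 on library totals without TMM. The CTRL level itself was 6.80 ± 1.82 CPM on day 1 and 3.09 ± 0.61 CPM on day 2 (SD, n = 4 and 3). A difference between days in the EXP effect was not called for Angpt2 (edgeR adjusted p = 0.123).

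The ratio of Angpt1 to Angpt2 per kb combined these changes. Its median was 0.757, 0.672 and 1.11 in CTRL on days 1, 2 and 4 and 1.71, 3.62 and 4.88 in EXP. The ratio exceeded 1 in all 5, 3 and 3 EXP libraries of the respective days. In CTRL it did so in 2 of 4, 0 of 3 and 2 of 4. Its highest value, 11.7, was in EXP library 1 of day 4.

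The receptors of these ligands were mostly low in the sorted cells. Of 8 receptor and co-receptor genes 7 were tested, none was called on day 1 and 1 rose on days 2 and 4, with medians of -0.79, 1.54 and 1.23. The shares called among all tested genes were 28.6%, 13.4% and 22.5% on days 1, 2 and 4, with medians of 0.02, 0.02 and 0.03. Kdr, the gene of VEGFR-2, was the called receptor gene. Its group means were 0.0697 CPM in CTRL and 0.928 CPM in EXP on day 2 (edgeR adjusted p = 0.0345), and 0.204 and 1.78 CPM on day 4 (edgeR adjusted p = 0.0179). The day 2 CTRL mean lay below the lowest detectable level. The CTRL libraries held 0, 4 and 0 Kdr counts on day 2 and 8, 8, 0 and 2 on day 4. The co-receptors Nrp1 and Nrp2, which bind VEGF isoforms and semaphorins, were the abundant members, with group means of 55.0 to 112 CPM and 51.1 to 135 CPM, and were called on no day. Tek, the angiopoietin receptor, averaged 28.4 CPM in EXP against 4.59 CPM in CTRL on day 4, which was not called (log2 fold change 2.63, edgeR adjusted p = 0.0563). The Kdr call was lost without CTRL library 1, CTRL library 3 or EXP library 1 on day 2 and without CTRL library 4 or EXP library 2 on day 4. Flt4, the gene of VEGFR-3, was too low to test. In EXP on day 4 it was 4.35 CPM (162 counts) in library 1, the library with the highest Vegfd and Angpt1, and 0.243 and 0.0357 CPM in the others.

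Some markers of other cell types also rose on days 2 and 4, when Vegfd and Angpt1 rose. Over all tested genes 7.72% rose on day 2 and 12.8% on day 4. Of 7 tested markers of mature adipocytes 2 rose on day 2 and 6 on day 4. The summed level of all 8 was 188, 15.8 and 21.3 CPM in the day 2 EXP libraries and 7.26 to 11.6 CPM in CTRL. On day 4 it was 7.17, 257 and 692 CPM in EXP libraries 1, 2 and 3 and 2.11 to 7.09 CPM in CTRL. EXP library 1 of day 4, with the lowest of these EXP sums, had the highest Vegfd (46.4 CPM) and Angpt1 (39.9 CPM) of all 22 libraries. The same library had the lowest summed level of the 8 fibroblast markers, 54353 CPM, and EXP library 3, with 172135 CPM, had the lowest Vegfd and Angpt1 of the 3. On day 2 the lowest fibroblast sum, 62295 CPM, was in EXP library 1, which had the lowest Vegfd of its group. Its Angpt1, at 9.67 CPM, lay between the 6.18 and 14.2 CPM of EXP libraries 2 and 3. The part of the fibroblast markers in the rises was not tested. Of 4 tested myeloid markers 2 rose on days 2 and 4, Cd14 (1.18 and 1.34, edgeR adjusted p = 0.0337 and 0.00841) and S100a8, which was at most 5.45 CPM. Csf1r, most of the summed myeloid level in CTRL, was lower but not called (-1.19 and -0.57, edgeR adjusted p = 0.0629 and 0.303). Lyz2 was not called either (-0.06 and 0.53). The sums of all 8 myeloid markers were 95.2 to 192 CPM in EXP and 119 to 142 CPM in CTRL on day 2, and 96.97 to 165 and 105 to 129 CPM on day 4, with Ptprc, Adgre1 and Itgam at no more than 0.292 CPM. Of 8 tested blood endothelial markers none rose on day 2, and on day 4 Emcn rose to at most 1.21 CPM (edgeR adjusted p = 0.0394). Within that list Pecam1 was 1.63 to 3.76 CPM in EXP and 0.145 to 1.61 CPM in CTRL on day 4. Plvap was 9.75 to 51.9 CPM in EXP and 37.9 to 63.8 CPM in CTRL on day 4, and Cdh5 was no more than 0.603 CPM in any library. The summed blood endothelial markers were 26.0 to 70.6 CPM in EXP and 21.6 to 47.6 CPM in CTRL on day 2, and 15.1 to 58.5 and 38.6 to 67.3 CPM on day 4. Neither of the 2 tested lymphatic endothelial markers was called. The sum of all 6 was 3.21 to 3.69 CPM in EXP and 1.56 to 4.89 CPM in CTRL on day 2. On day 4 it was 7.53 CPM in EXP library 1, of which Flt4 made up 5.73 CPM on the same library totals, and 1.81 and 1.75 CPM in the others, against 2.32 to 6.54 CPM in CTRL. The part of these markers in the rises was not tested.

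Vegfa, the main blood vessel growth factor of the family, was the highest of the 5 VEGF ligands per kb in every group except EXP on day 4. On day 1 the CTRL libraries held 76.9, 69.1, 122 and 36.0 CPM and the EXP libraries 417, 114, 125, 104 and 74.8 CPM. The groups overlapped, and 1 EXP library stood far above all others. The log2 fold change of 1.14 ± 0.49 (SE) was not called (edgeR adjusted p = 0.0883) and was 0.49 without that library. DESeq2 did call Vegfa on day 1 (1.12, adjusted p = 0.0428), on day 4 (-1.41, adjusted p = 0.0279) and between days (adjusted p = 0.0112). On day 2 the CTRL libraries held 75.5, 60.5 and 36.5 CPM and the EXP libraries 28.0, 41.1 and 36.7 CPM, a log2 fold change of -0.71 (95% interval -1.94 to 0.53). On day 4 the values were 30.1, 42.3, 92.6 and 130.1 CPM in CTRL and 28.5, 33.1 and 22.4 CPM in EXP (log2 fold change -1.40 ± 0.56 SE, edgeR adjusted p = 0.0803, and -1.66 with adjusted p = 0.0427 without CTRL library 1). Within the EXP arm Vegfa changed over time (edgeR joint test, adjusted p = 0.00396), from a mean of 167 CPM on day 1 to 35.3 and 28.0 CPM on days 2 and 4. Vegfa was 1 of 4 ligands called in that test, which called 14.3% of all genes. The difference in the EXP effect between days was not called (edgeR adjusted p = 0.0692).

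Vegfa also followed a split among the libraries that the labels do not give. A set of 192 genes that vary together within groups put 7 libraries on a high side (3 CTRL and 2 EXP of day 1, 2 CTRL of day 4) and 15 on a low side. On day 4 Vegfa was 92.6 and 130.1 CPM in the CTRL libraries of the high side, 30.1 and 42.3 CPM in those of the low side and 22.4 to 33.1 CPM in EXP, whose libraries were all on the low side. On day 1 the high side held 69.1 to 122 CPM in CTRL and 114 and 417 CPM in EXP, and the low side 36.0 CPM in the single CTRL library and 74.8 to 125 CPM in EXP. Within the high side of day 1 the Vegfa log2 fold change was 1.57 ± 0.55 (SE), and within the low side of day 4 it was -0.36 ± 0.57 (SE), neither called (edgeR adjusted p = 0.0709 and 0.745). With the split as a covariate Vegfa was called on day 1 (1.57 ± 0.31 SE, edgeR adjusted p = 0.00114) and between days (adjusted p = 0.00548). The day 4 value was then -0.46 (edgeR adjusted p = 0.408). The split was drawn from the spread within groups of these same counts. The p-values of fits that use it are conditional on it and are no independent support. Within the low side of day 4, which has 2 CTRL libraries, Vegfd and Vegfb were called, and Vegfc (-1.30, edgeR adjusted p = 0.0580) and Angpt1 (1.49, adjusted p = 0.0652) were not.

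Pgf, a ligand of VEGFR-1, fell on day 2. The CTRL libraries held 10.4, 4.49 and 12.1 CPM and the EXP libraries 1.68, 1.85 and 2.85 CPM. The arms did not overlap, and Pgf was 4.24-fold lower in EXP (log2 fold change -2.08 ± 0.53 SE, edgeR adjusted p = 0.0125). On day 1 the CTRL libraries held 2.68, 13.6, 4.97 and 4.41 CPM and the EXP libraries 5.03, 3.43, 6.83, 5.19 and 3.61 CPM, and on day 4 the CTRL libraries held 7.55, 8.84, 8.72 and 5.89 CPM and the EXP libraries 11.1, 22.9 and 6.25 CPM. Both days overlapped, with log2 fold changes of -0.41 (95% interval -1.28 to 0.46) and 0.79 (-0.19 to 1.77). The EXP effect on Pgf differed between days (edgeR joint test, adjusted p = 0.0320), and so did its level within EXP (adjusted p = 0.00411). The day 2 call was lost without CTRL library 3 (log2 fold change -1.83, edgeR adjusted p = 0.0511) or EXP library 1 (-1.94, adjusted p = 0.0742). The call between days was lost in 6 of 22 fits that left out a library and without the filter on low counts (edgeR adjusted p = 0.0538).

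Vegfb, a VEGFR-1 ligand linked to fatty acid handling, was low but rose on day 4. The CTRL libraries held 0.484, 0.729, 1.299 and 1.08 CPM and the EXP libraries 2.39, 2.22 and 1.86 CPM. All EXP libraries were above all CTRL libraries, a 2.39-fold rise (log2 fold change 1.25 ± 0.31 SE, edgeR adjusted p = 0.00830). On day 2 the arms also did not overlap, at 0.946 to 1.36 CPM in CTRL and 1.46 to 1.68 CPM in EXP, and the difference was not called (0.51 ± 0.34 SE, edgeR adjusted p = 0.345). On day 1 the log2 fold change was -0.25 (95% interval -0.83 to 0.32). The day 4 call held in all 7 fits that left out a library of that day, and was lost when only the day 4 libraries were fitted (1.23, edgeR adjusted p = 0.107). The fewest counts behind a Vegfb value were 10.

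**Figure D3:**
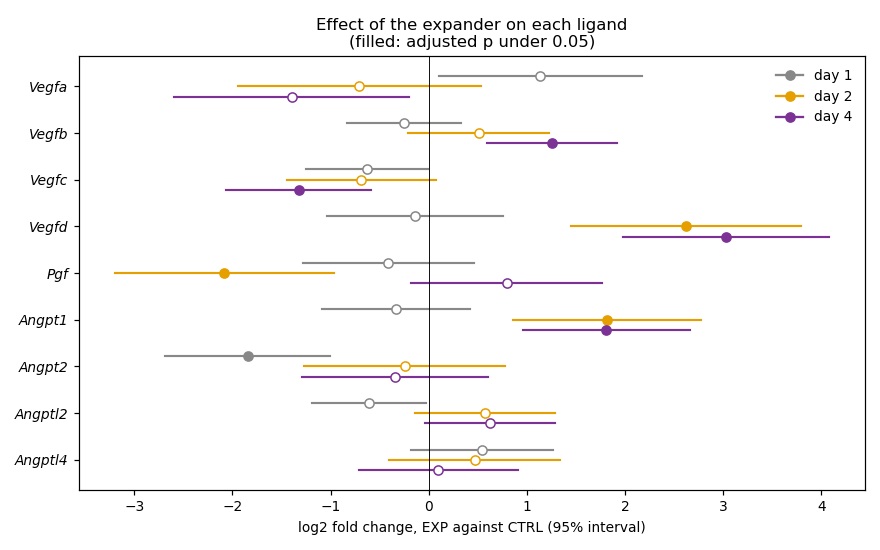
Log2 fold change of EXP against CTRL (horizontal axis) for each ligand on days 1 (grey), 2 (orange) and 4 (purple), with bars for the 95% interval and filled points for an adjusted p under 0.05. Vegfd has the largest values, 2.62 on day 2 and 3.03 on day 4, and the intervals of Angptl4 include 0 on every day.

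Angptl2 and Angptl4 were the most abundant members and were called on no day. Angptl2 was 579 ± 163 CPM in CTRL and 380 ± 142 CPM in EXP on day 1 (SD, n = 4 and 5), 414 ± 96.7 and 616 ± 180.2 CPM on day 2 (n = 3 and 3), and 365 ± 73.8 and 561 ± 185 CPM on day 4 (n = 4 and 3). The arms overlapped on every day. Its log2 fold changes were -0.61 (95% interval -1.19 to -0.02), 0.57 (-0.14 to 1.29) and 0.62 (-0.04 to 1.28), with edgeR adjusted p of 0.104, 0.282 and 0.158. On library totals without TMM, where all genes shift upwards, Angptl2 was called on day 2 (1.08, edgeR adjusted p = 0.0373) and day 4 (1.01, adjusted p = 0.0315). Its day 1 difference was called without CTRL library 3 (-0.79, edgeR adjusted p = 0.0488).

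Angptl4, a target of hypoxia-inducible factor (HIF) and of the PPAR nuclear receptors in many cells, had group means of 152 to 267 CPM. They were 183 ± 88.6 CPM in CTRL and 267 ± 83.0 CPM in EXP on day 1, 152 ± 51.3 and 209.9 ± 49.4 CPM on day 2, and 185 ± 77.2 and 198 ± 50.1 CPM on day 4 (SD). The arms overlapped on each day. The log2 fold changes were 0.54 (95% interval -0.18 to 1.26), 0.47 (-0.41 to 1.34) and 0.10 (-0.71 to 0.91), with edgeR adjusted p of 0.247, 0.494 and 0.882. When the split, which was drawn from these same counts, was added to the fit, Angptl4 was called on day 1 (0.87, edgeR adjusted p = 0.0461).

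Ordered per kb of exon, Angptl2 and Angptl4 held the top places in all 6 groups. Angptl2 was first, at 58.1 to 97.9 CPM per kb in the group means, except in EXP on day 1, where it was 60.4 ± 22.5 and Angptl4 75.4 ± 23.5 CPM per kb (SD, n = 5), a difference within the spread. The libraries of these 2 genes overlapped in every group except EXP on day 4. Vegfa came next with 8.23 to 38.9 CPM per kb in all groups but EXP on day 4. In EXP on day 2 its libraries, at 6.52 to 9.60 CPM per kb, overlapped those of Vegfd at 5.20 to 8.79. In EXP on day 4 Vegfd came next at 13.3 ± 7.68 and Vegfa after it at 6.53 ± 1.26 CPM per kb, and the ranges of 4.63 to 19.3 and 5.22 to 7.72 overlapped. Vegfc was at rank 4 in all 3 CTRL groups (6.26 to 7.07 CPM per kb) and at rank 7 in EXP on day 4 (2.81 ± 1.19). Vegfb, Angpt1 and Angpt2 shared the lowest place, which was 0.513 to 1.02 CPM per kb depending on the group, and the libraries of the lowest gene overlapped those of the next in 4 of 6 groups. These are levels and not differences, and exon lengths are those of GENCODE M21.

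Over the days, the CTRL arm showed no called change in any ligand. The edgeR joint test called 0 of 9 members and 0.291% of all tested genes. At an unadjusted p under 0.05 it took 3 ligands, Vegfb, Vegfd and Angpt1, and 2490 genes. DESeq2 and limma voom called 0 ligands too, with 525 and 602 genes called over the table. In the EXP arm 4 ligands changed over the days: Vegfa, Vegfd (edgeR adjusted p = 0.00577), Pgf and Angpt1 (edgeR adjusted p = 0.00186). The mean of Vegfd in EXP was 6.55, 15.8 and 32.0 CPM on days 1, 2 and 4, and that of Angpt1 5.13, 9.9998 and 23.1 CPM. All 4 remained called in each of 11 fits that left out an EXP library.

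Of 6 other ligands of the angiopoietin family 5 were tested. None rose and 2 fell on day 1, 1 rose and 1 fell on day 2, and 2 rose on day 4, with medians of -1.43, 0.35 and -0.11. Among all tested genes 28.6%, 13.4% and 22.5% were called on these days, with medians of 0.02, 0.02 and 0.03. Angpt4, another Tie2 ligand, averaged 5.39 CPM in CTRL and 100.3 CPM in EXP on day 2, and 13.8 and 114 CPM on day 4 (log2 fold changes 4.21 and 3.04, edgeR adjusted p = 0.0102 and 0.0170). Angptl1 fell on day 1 from 95.4 to 8.42 CPM (-3.50, edgeR adjusted p = 9.90e-05) and on day 2 from 80.9 to 19.6 CPM (-2.05, adjusted p = 0.0340). The Angpt4 call was lost without CTRL library 1 or 2 on day 2 and without EXP library 2 on day 4, and the day 2 call of Angptl1 in 4 of 6 fits that left out a library. Angptl6 fell on day 1 from 1.72 to 0.455 CPM (-1.90, edgeR adjusted p = 3.43e-04). Angptl8, which acts with other angiopoietin-like proteins on lipoprotein lipase, was at 0 in all CTRL libraries of day 4 and averaged 0.939 CPM in EXP (edgeR adjusted p = 0.0101).

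Genes of the HIF pathway, which drives Vegfa and Angptl4 in many cells, were counted beside the ligands. Over all tested genes 28.6%, 13.4% and 22.5% were called on days 1, 2 and 4. Of 9 regulators 3 rose and 1 fell on day 1, 2 rose on day 2, and 1 rose and 1 fell on day 4. Hif1a, the oxygen-regulated subunit HIF-1α, rose on all 3 days (log2 fold changes 0.95, 0.61 and 0.75, edgeR adjusted p = 2.06e-04, 0.0363 and 0.00577). Epas1, which encodes HIF-2α, rose on day 1 from 33.8 to 217 CPM and on day 2 from 45.0 to 229 CPM (2.68 and 2.34, edgeR adjusted p = 4.74e-05 and 0.00178). Of 13 tested HIF target genes 5 rose and 2 fell on day 1, 4 rose and 2 fell on day 2, and 6 rose and none fell on day 4. Their medians were 0.38, 0.36 and 0.49, beside 0.02, 0.02 and 0.03 over all tested genes. Slc2a1, the glucose transporter GLUT1, rose on each day (1.26, 0.88 and 1.24, edgeR adjusted p = 6.27e-05, 0.0117 and 5.63e-04), as did Ldha, lactate dehydrogenase A (1.06, 0.71 and 0.87, edgeR adjusted p = 3.08e-05, 0.00909 and 0.00125). P4ha1, a collagen prolyl hydroxylase subunit, fell on day 1 from 244 to 129.5 CPM (-0.91, edgeR adjusted p = 9.46e-05) and on day 2 (-0.77, adjusted p = 0.00601). The day 2 calls were lost in 5 of 6 fits that left out a library for Hif1a, in 3 of 6 for Slc2a1 and without CTRL library 2 for Ldha. In the edgeR fit of all libraries without covariates Vegfa and Angptl4 were called on none of these days.

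**Figure D4:**
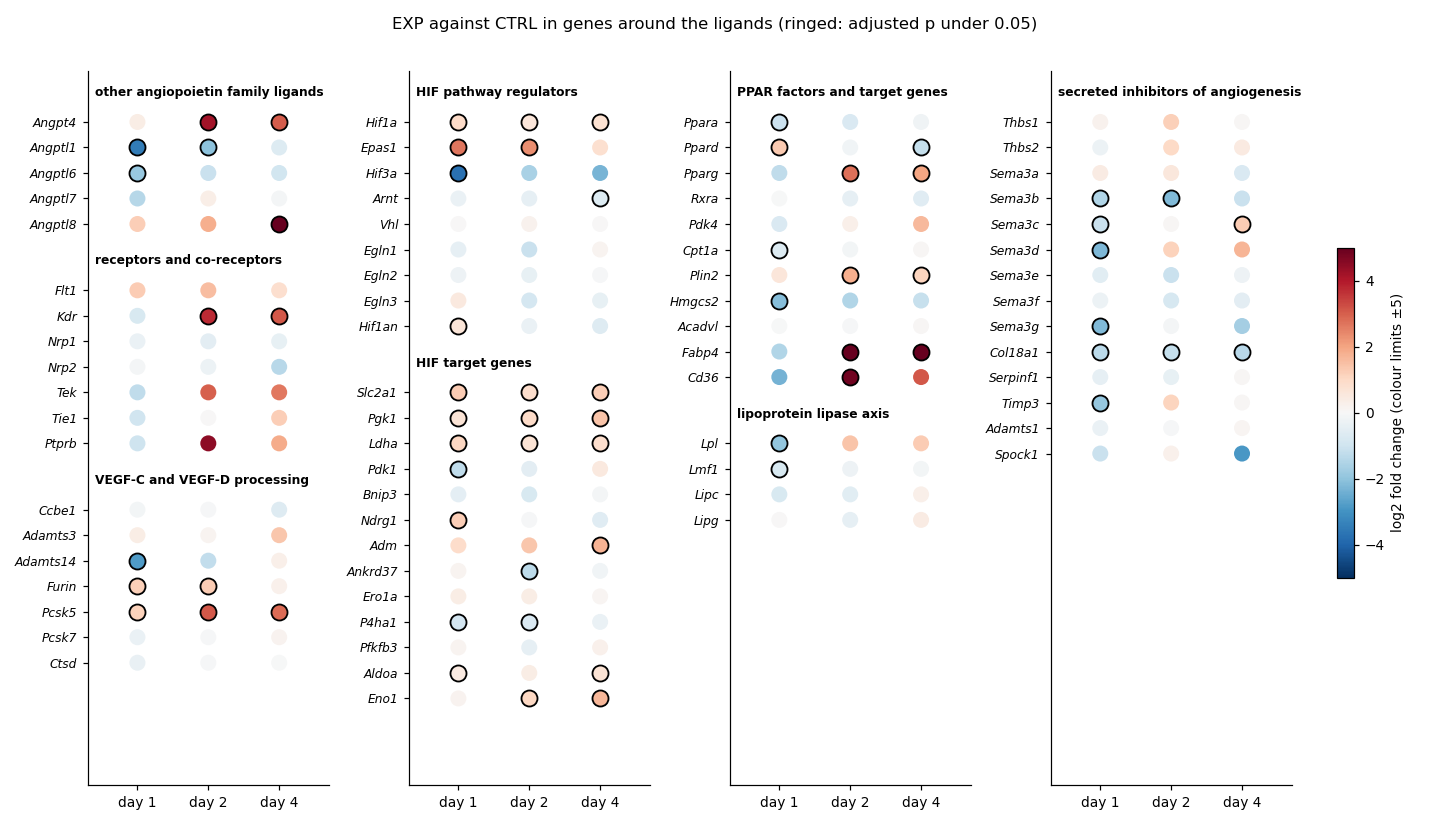
Log2 fold change of EXP against CTRL (colour, red higher and blue lower, limits at -5 and 5) on days 1, 2 and 4 for the tested genes of 8 lists around the ligands, with a ring around values with an adjusted p under 0.05. Hif1a, Slc2a1, Ldha and Pcsk5 are ringed and red on all 3 days, and Col18a1 is ringed and blue on all 3.

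The genes whose pattern over the 22 libraries was most like that of a called ligand were listed for members with a mean of at least 5 CPM, among 9823 tested genes of at least that level (Pearson r of log2 CPM). All libraries enter each value, so arm, day and depth are shared by the points. For Vegfd these were Aldh3b1, an aldehyde dehydrogenase (r = 0.934), Loxl3, a lysyl oxidase (0.927), and Col12a1, a chain of collagen XII (0.899). For Angpt1 they were F3, tissue factor (r = 0.899), Tspan6 (0.866) and Bmper, a secreted regulator of bone morphogenetic proteins (0.865). For Vegfc they were Wnt5a, a secreted Wnt ligand (r = 0.860), Ttc7 (0.843) and Cenpl (0.843). The closest to Pgf were Bnip3 (r = 0.784), Lsp1 (0.774) and Gm6532 (0.718).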

How the data were processed

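RNA from sorted mouse fibroblasts was sequenced in 22 libraries, grouped by the day and surgery given in the labels. The authors deposited raw read counts per gene, and 0 columns lay outside the labels. Trimmomatic and mm39 are named in the submitters' processing notes. The aligner, counter, annotation and strandedness are not given in the sources used here, so reads of overlapping genes on opposite strands cannot be told apart. Of 55414 identifiers, GENCODE M21 gave symbols for 52081, and exon lengths came from it. No gene coordinates are given because it is on another build, and those of the Vegfd and Vegfc promoter stretches refer to GRCm38.p6.

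Counts were analysed in R 4.3.3 with edgeR 4.0.16: filterByExpr (minimum count 10), TMM, and a robust quasi-likelihood fit with a mean per group over all libraries (16 residual degrees of freedom). Standard errors refer to log2 fold changes, 95% intervals use the t distribution, and p-values were adjusted by Benjamini-Hochberg over 17554 genes. CPM of members and list genes use TMM-scaled totals and those of markers library totals, and log2 CPM a prior count of 2. The fit was tested on simulated data. All 9 members were named; of each list, the 3 called genes with the smallest p and the receptors and inhibitors of at least 5 CPM could be named, and promoters shown for members called on at least 2 days. The members, lists and rules were chosen with earlier results of these data known. Alternatives were DESeq2 1.42.0, its size factors, library totals, no filter, limma 3.58.1 voom, a replicate block, the library split (genes correlating above 0.9 with Rnf10 after removal of group means), a log2 fold change of at least 1, single days and each library left out.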

Additional observations from a re-analysis of the deposited data

Results flagged for a closer look

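In 27 sets of 4 or 5 libraries of a group, 3 had a library far from the others, where chance gives about 1 in 20, or 1.35. Vegfa was 417 CPM in EXP library 1 of day 1 and 74.8 to 125 CPM in the other 4. Angpt1 was 8.93 CPM in EXP library 2 of day 1 and 3.73 to 4.85 CPM in the other 4. Angpt2 was 8.70 CPM in CTRL library 4 of day 4 and 3.10 to 3.73 CPM in the other 3.

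The difference between the arms itself differed between days for 3 ligands in edgeR's joint test, at adjusted p of 0.00674 for Vegfd, 0.0320 for Pgf and 0.0179 for Angpt1. Vegfd and Angpt1 rose in EXP on days 2 and 4, with log2 fold changes of -0.14 and -0.33 on day 1. Pgf fell in EXP on day 2, with log2 fold changes of -0.41 on day 1 and 0.79 on day 4.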

How the results depend on the processing

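Of 1017 recomputed values of single ligands, 963 kept their direction and their side of the threshold, 20 lost a call, 21 gained one and 13 changed sign, none of the 13 called. The cause was not tested. Vegfd on day 1 was 9.21e-04 on library totals, 0.42 on the high side of the split, where Angpt1 was 0.093, and -0.48 to 0.043 with a library left out (positive without EXP replicate 4). Angpt2 on day 2 was 0.20 on library totals and -0.56 to 0.051 with a library left out (positive without EXP replicate 1). On day 4 it was 0.12 with the split as a covariate, 0.25 on the low side and -0.95 to 0.15 with a library left out (positive without CTRL replicate 4). Angptl4 on day 4 was -0.058 with the replicate block and -0.059 to 0.42 with a library left out (negative without CTRL replicate 3 or EXP replicate 1), and Pgf on day 1 was -0.67 to 0.26 (positive without CTRL replicate 2).

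Ligands called on day 1 were 3 with the split as a covariate and 2 with DESeq2 or the replicate block, on day 4 they were 2 on the low side of the split and 5 with DESeq2, and between days 6 with DESeq2 and 5 with the split. The restrictions to one side of the split were added after seeing the data, and the split itself was drawn from the same counts. Over all genes, library totals and voom called 4631 and 4567 on day 2. A log2 fold change of at least 1 left 2504, 1568 and 2405 on days 1, 2 and 4. The day 4 libraries alone gave 1128, the low side of day 4 gave 1368 and the high side of day 1 gave 2403. Between days DESeq2 called 2609 and the block 775, against 1549. Within CTRL, where 51 were called, DESeq2 called 525, library totals 163, voom 602, the block 19 and the split 29, and within EXP the block called 1432 against 2502.

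With a library left out, ligand calls numbered 1 to 2, 1 to 3 and 3 to 5 on days 1, 2 and 4, 2 to 4 between days, 0 within CTRL and 4 within EXP. The counts over all genes were 4024 to 4830, 891 to 2177, 1633 to 5011, 898 to 2572, 5 to 92 and 1367 to 3415. Vegfa was called on day 4 without CTRL library 1 (-1.66).

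The replicate numbers did not clearly pair the libraries: same-numbered deviations correlated at -0.07 to 0.16. Of the CTRL libraries, 1 of 4, 0 of 3 and 3 of 3 correlated best with their own number on days 1, 2 and 4. A pairing on day 4 is therefore not settled by this check. In the fit with the numbers as a replicate block Angptl2 was called on day 1 (-0.82) and between days (adjusted p = 0.0419), and Pgf (0.0657) and Angpt1 (0.0565) were not called between days. Groups of 3 libraries limit what can be called on day 2, and Vegfb and Angpt2 rest on as few as 10 and 22 counts.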

Other observations

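Among 14 tested genes of secreted inhibitors of angiogenesis, the counterparts of these ligands, none rose and 6 fell in EXP on day 1. Of all tested genes 13.9% rose and 14.7% fell on that day. None rose and 2 fell on day 2, when 7.72% of all tested genes rose and 5.71% fell. Day 4 had 1 rise and 1 fall, beside 12.8% and 9.66% of all tested genes. The list had median log2 fold changes of -0.83, -0.01 and -0.10 on days 1, 2 and 4, beside 0.02, 0.02 and 0.03 over all genes. Col18a1, whose collagen chain releases endostatin, fell on all 3 days (-1.35, -1.18 and -1.38, edgeR adjusted p = 7.18e-04, 0.0184 and 0.00445). Timp3, a metalloproteinase inhibitor that also blocks VEGFR-2, fell on day 1 from 223 to 58.1 CPM (-1.94, edgeR adjusted p = 1.59e-04), and the EXP effect on it differed between days (adjusted p = 0.00187). Sema3d fell on day 1 (-2.23, edgeR adjusted p = 0.00747). Sema3c fell on day 1 (-1.10, edgeR adjusted p = 0.0228) and rose on day 4 (1.26, adjusted p = 0.0282). Sema3b fell on day 1 (-1.51, edgeR adjusted p = 0.0181) and day 2 (-2.20, adjusted p = 0.0163). Calls were lost in 2 of 6 fits that left out a library for Col18a1 on day 2, in 4 of 9 and 5 of 7 for Sema3c on days 1 and 4, and in 1 of 9 and 2 of 6 for Sema3b on days 1 and 2. The thrombospondins Thbs1 and Thbs2 and the protease Adamts1 had group means of 1637 to 4079 CPM and were called on no day.

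Of 4 tested genes of the lipoprotein lipase axis 2 fell on day 1 and none was called on days 2 and 4. Their median log2 fold changes were -0.79, -0.35 and 0.34 on days 1, 2 and 4. Of all tested genes 28.6% were called on day 1 (14.7% lower), 13.4% on day 2 and 22.5% on day 4. Lpl, the lipoprotein lipase that Angptl4 inhibits, fell on day 1 from 511 to 129.7 CPM (-1.98, edgeR adjusted p = 0.00618), and its EXP effect differed between days (adjusted p = 0.0111). Of 11 PPAR factors and target genes 1 rose and 3 fell on day 1, 4 rose on day 2, and 3 rose and 1 fell on day 4, against 28.6%, 13.4% and 22.5% of all genes called on these days, with medians of -0.75, -0.04 and 0.05. Fabp4, a fatty acid binding protein of adipocytes, rose on days 2 and 4 (5.09 and 6.46, edgeR adjusted p = 0.00925 and 7.55e-04). Plin2, a lipid droplet coat protein, rose on days 2 and 4 (1.82 and 1.11, edgeR adjusted p = 0.00655 and 0.0366). The calls were lost without EXP library 1 for Fabp4 on day 2 and in 5 of 7 fits that left out a library for Plin2 on day 4. The adipocyte marker sums of the same EXP libraries were 15.8 to 188 CPM on day 2 and 7.17 to 692 CPM on day 4, and their part in these rises was not tested. Ppard rose on day 1 (1.32, edgeR adjusted p = 9.12e-04) and fell on day 4 (-1.20, adjusted p = 0.00853, and -0.94 with adjusted p = 0.0644 without EXP library 1).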
